A study of Mus musculus with 4 samples.

Results

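The genes described here encode the Hand, Twist, E-protein and Id transcriptional regulators, a network of dimer partners of the basic helix-loop-helix (bHLH) family. They were chosen as a family, by gene symbol and not by a threshold on these values, though with earlier results of these data known, and all 10 were found among the 25239 symbols of the count table: Hand1, Hand2, Twist1, Twist2, Tcf3, Tcf4, Tcf12, Id1, Id2 and Id3. RNA came from hindlimb bud cells of FVB mouse embryos at embryonic day 11.5, whose own genotype is labelled wild-type. All embryos carried a reporter at the H11 safe-harbour locus, H11^hsp68-hZRS(404G>A)-mCherry, in which the human form of the Shh limb enhancer ZRS with the 404G>A base change acts on the hsp68 promoter to drive the red fluorescent protein mCherry. The anterior group was mCherry-positive cells of the anterior hindlimb, and the central group was mCherry-negative cells of the central hindlimb, with 2 libraries of each. Position in the bud and reporter state therefore changed together and cannot be told apart, and the number of embryos behind a library is not given in the sources used here.

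bHLH proteins bind DNA as dimers, at short words called E-boxes (CANNTG). E proteins are broadly expressed and pair with tissue-restricted partners such as Hand and Twist proteins, whereas Id proteins keep the helix-loop-helix but lack the basic DNA-binding region, so that an E protein bound by an Id protein is held off DNA. In the limb bud Hand2 is known as a posterior regulator acting upstream of Shh and opposing Gli3, Twist1 is needed for limb mesenchyme and can dimerize with Hand2, and Id genes are familiar targets of BMP signalling. Tcf3 and Tcf4 here are the E-protein genes also called E2A and E2-2, not the Wnt effectors of the Tcf/Lef family that have shared these names.

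Of the 10 genes, 8 were called different between anterior and central cells at an adjusted p-value under 0.05 (edgeR quasi-likelihood test, Benjamini-Hochberg adjustment over all 14610 genes tested). Twist1, Id1, Id2 and Id3 were higher in anterior cells, and Hand2, Twist2, Tcf4 and Tcf12 were lower. Hand1 and Tcf3 were not called. The background was 22.9% of all genes tested, with 10.7% called higher and 12.3% called lower, and 26.8% of the 4922 genes with a mean of at least 50 CPM. CPM are counts relative to the TMM-scaled library total, and 8 of the 10 genes lay above that level. Between libraries of a group, the median gene differed by 0.12 (anterior) and 0.15 (central) on the log2 scale.

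The windows before the start sites of Hand2 and of both Twist genes are shown because the Twist genes changed in opposite directions and because Hand2 shares its window with the start of a divergent non-coding RNA. Each line gives the 250 bases before the RefSeq start site (GRCm38.p6), 5′ to 3′ on the gene's strand, with E-boxes in capitals. The Hand2 window is chr8:57320733-57320982, the Twist1 window chr12:33957421-33957670 and the Twist2 window chr1:91801211-91801460, all on the plus strand.
Hand2: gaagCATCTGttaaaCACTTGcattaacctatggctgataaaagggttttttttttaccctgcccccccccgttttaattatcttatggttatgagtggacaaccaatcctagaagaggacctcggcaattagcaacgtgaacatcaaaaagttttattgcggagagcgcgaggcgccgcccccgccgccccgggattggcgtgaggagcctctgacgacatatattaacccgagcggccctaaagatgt
Twist1: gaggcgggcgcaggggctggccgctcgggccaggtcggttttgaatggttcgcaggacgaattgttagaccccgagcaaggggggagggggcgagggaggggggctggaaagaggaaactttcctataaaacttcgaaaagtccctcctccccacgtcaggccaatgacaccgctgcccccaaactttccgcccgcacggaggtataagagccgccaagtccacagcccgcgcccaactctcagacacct
Twist2: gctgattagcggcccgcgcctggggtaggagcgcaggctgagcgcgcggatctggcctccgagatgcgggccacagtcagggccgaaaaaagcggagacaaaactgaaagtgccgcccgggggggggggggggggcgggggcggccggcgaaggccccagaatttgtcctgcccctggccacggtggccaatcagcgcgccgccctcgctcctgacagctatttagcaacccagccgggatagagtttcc

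The E-box CANNTG, searched on both strands with overlaps counted, occurred 2 times in the Hand2 window, as CATCTG at position -246 and CACTTG at position -235, counting -1 as the base before the start site. It did not occur in either Twist window. Of all 32851 windows of this length in the table, 66.2% held at least 1 E-box. The Hand2 window also held a GGCGCC palindrome, found in 9.59% of all windows, a word known from BMP-responsive Smad elements. All 3 windows held CCAAT on 1 strand or the other, as 33.8% of all windows did. The RefSeq start of Hand2os1, on the minus strand, lies 124 bases before that of Hand2 and thus inside its window. Windows were listed for 7 of the 10 genes. Those of Id2 and Id3 are not printed: Id2 held 1 E-box (CAGCTG) and 1 GGCGCC, and Id3 held neither word.

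Hand2 was lower in anterior cells. The gene lies at chr8:57320983-57324517 on the plus strand. It measured 239 and 169 CPM in anterior replicates 1 and 2 and 355 and 343 CPM in central replicates 1 and 2. The groups did not overlap, and the anterior libraries were further apart than the central ones. Anterior cells averaged 204 ± 49.7 CPM and central cells 349 ± 8.16 (SD, n = 2), and the fitted log2 fold change was -0.78 ± 0.13 (SE; edgeR adjusted p = 0.00402). Hand2 was thus 1.71-fold lower in anterior cells without being near the floor of detection.

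Hand2os1, the long non-coding RNA divergent from Hand2, was named after its values were seen. It measured 15.5 and 9.17 CPM in the anterior libraries and 34.8 and 32.2 CPM in the central ones. Both anterior values lay under both central ones, with a log2 fold change of -1.44 ± 0.21 (SE; edgeR adjusted p = 0.00162). In each gene the second anterior library was the lowest of the 4. RefSeq places the 2 genes 123 bases apart, whereas GENCODE M21 has 461 exon bases of Hand2 covered by Hand2os1 on the opposite strand. Since the strand setting of the counting is not given, reads of those bases could have been assigned to either gene or to neither.

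Hand1, the other Hand gene, is known from heart, placenta and ventral limb mesenchyme. Located at chr11:57828713-57832147 (minus strand), it measured 0.90 and 3.85 CPM in anterior libraries and 2.01 and 0.74 CPM in central libraries, from 30, 113, 62 and 24 counts. The groups overlapped, and the spread inside each group exceeded the difference between them (log2 fold change 0.78 ± 0.69 SE, edgeR adjusted p = 0.474). Its direction turned without anterior replicate 2, to -0.60.

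The Twist genes moved in opposite directions. Twist1 (chr12:33957671-33959831, plus strand), a repressor and activator essential for mesenchyme, measured 480 and 458 CPM in anterior cells against 282 and 248 CPM in central cells. All anterior values lay above all central ones. Anterior cells averaged 469 ± 15.6 CPM and central cells 265 ± 23.6 (SD, n = 2), and the fitted log2 fold change was 0.83 ± 0.08 (SE; edgeR adjusted p = 0.000116).

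Twist2 (chr1:91801461-91848034, plus strand), also called Dermo1 and known from dermal and osteogenic mesenchyme, measured 21.9 and 18.0 CPM in anterior cells against 55.4 and 53.7 CPM in central cells. The values did not overlap, and the change was the largest among the 8 called members, with a log2 fold change of -1.45 ± 0.11 (SE; edgeR adjusted p = 4.66e-05), or 2.73-fold lower. In GENCODE an antisense transcript model overlaps 1477 exon bases of Twist2, but it has no row in the count table.

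**Figure D1:**
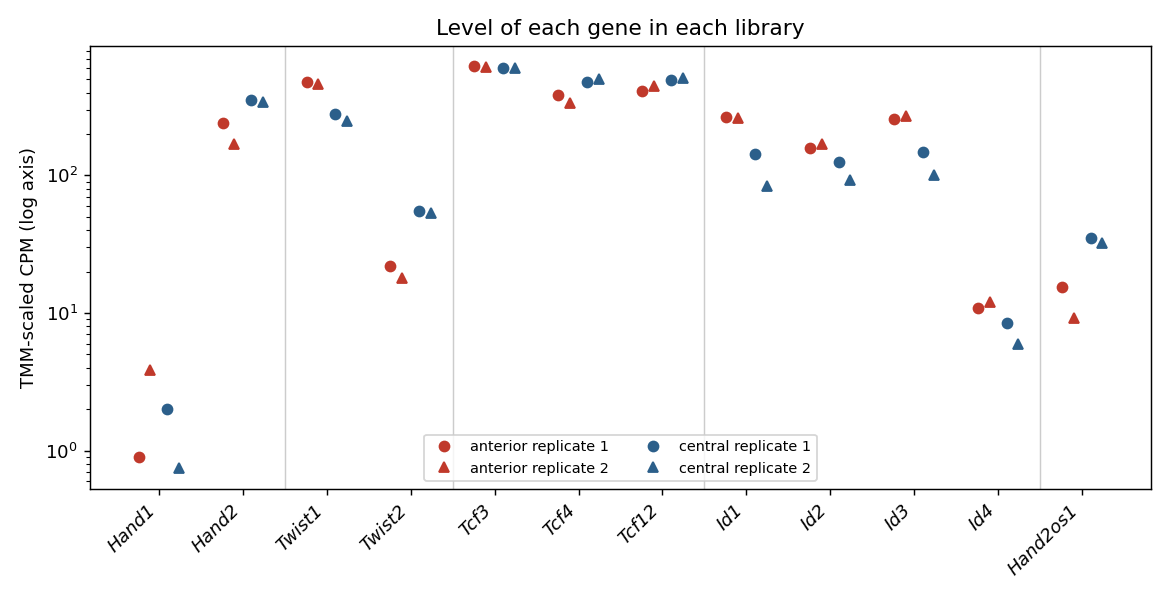
TMM-scaled CPM of the 10 genes, Id4 and Hand2os1 in each of the 4 libraries, on a log axis. Red is anterior and blue central, circles are replicate 1 and triangles replicate 2. The groups are separated for Hand2, both Twist genes, Tcf4, Tcf12 and each Id gene, lie close together for Tcf3, and overlap for Hand1.

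The E-protein genes changed least. Tcf3 (chr10:80409541-80433976, minus strand) measured 624 and 618 CPM in anterior cells and 600.0 and 602 CPM in central cells. The anterior libraries were higher by so little that the fit did not call it: the log2 fold change was 0.05 ± 0.06 (SE; edgeR adjusted p = 0.613), and groups that do not overlap occurred in 63.5% of all genes tested.

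Tcf4, on chromosome 18, was lower in anterior cells, with 387 and 338 CPM against 480 and 499 CPM in central cells. The groups did not overlap. The log2 fold change was -0.43 ± 0.08 (SE; edgeR adjusted p = 0.00452), a 1.35-fold difference. Without anterior replicate 2 it was -0.33 (edgeR adjusted p = 0.0512).

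Tcf12 (chr9:71844252-72111893, minus strand), whose protein is also called HEB and pairs with Twist1 in the cranial sutures, measured 413 and 446 CPM in anterior cells and 491 and 514 CPM in central cells. The separation was narrow, with a log2 fold change of -0.23 ± 0.07 (SE; edgeR adjusted p = 0.0395). It was not called without anterior replicate 1 (edgeR adjusted p = 0.327) or without anterior replicate 2 (0.107). These 3 genes make several protein isoforms by alternative splicing and start sites, which counts per gene do not separate.

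All 3 Id members were higher in anterior cells. Id1 (chr2:152736251-152737410, plus strand) measured 267 and 264 CPM in anterior cells against 144 and 83.4 CPM in central cells. The anterior libraries were nearly equal, while the central ones were apart. Anterior cells averaged 265 ± 2.63 CPM and central cells 113 ± 42.5 (SD, n = 2), and the fitted log2 fold change was 1.23 ± 0.20 (SE; edgeR adjusted p = 0.00277), or 2.34-fold higher.

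Id3 (chr4:136143822-136145392, plus strand) followed closely. It measured 255 and 270.1 CPM in anterior cells and 149 and 101 CPM in central cells, with no overlap. Its log2 fold change was 1.08 ± 0.15 (SE; edgeR adjusted p = 0.00125).

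Id2 (chr12:25093799-25096092, minus strand) showed the smallest rise of these Id genes. It measured 158 and 168 CPM in anterior cells and 125 and 92.2 CPM in central cells. The log2 fold change was 0.59 ± 0.12 (SE; edgeR adjusted p = 0.0101), with no overlap between groups.

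Id4, the remaining gene of the Id family, measured 10.9 and 11.9 CPM in anterior cells and 8.41 and 5.96 CPM in central cells. It lay in the same direction, with a log2 fold change of 0.67 ± 0.21 (SE), but just missed the threshold (edgeR adjusted p = 0.0506). Over 11 other settings with all 4 libraries, its adjusted p ranged from 0.0213 to 0.0691 and passed in 8.

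Each Id gene was lower in central replicate 2 than in central replicate 1. The log2 differences between these 2 libraries were 0.78 for Id1, 0.44 for Id2, 0.56 for Id3 and 0.49 for Id4, all above the median gene's 0.15. Between anterior replicates the same 4 genes differed by 0.02, -0.09, -0.08 and -0.13. The central libraries also differed in the summed level of 10 surface ectoderm markers, at 54.6 CPM in replicate 1 and 176 CPM in replicate 2. The anterior libraries had 10.2 and 10.4 CPM. In anterior cells 9 of the 10 markers were called lower, or 90%, against 12.3% of all genes tested. Some had few anterior counts, such as Krt5 with 8 and 4 and Wnt6 with 0 and 3. Other summed levels differed between the central libraries as well. Limb mesenchyme markers were higher in replicate 1 (1839 against 1694 CPM), as the Id genes were. So were chondrogenic markers (1509 against 1202 CPM) and dissociation stress genes (855 against 685 CPM). Endothelial (47.4 against 51.7 CPM) and erythroid markers (5.97 against 9.48 CPM) were lower in replicate 1. The part of these differences in the Id values was not tested. With either central library left out, all 3 Id members were still called, and the log2 fold change of Id1 ranged from 0.89 to 1.67 over the 4 fits that each left out a library.

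**Figure D2:**
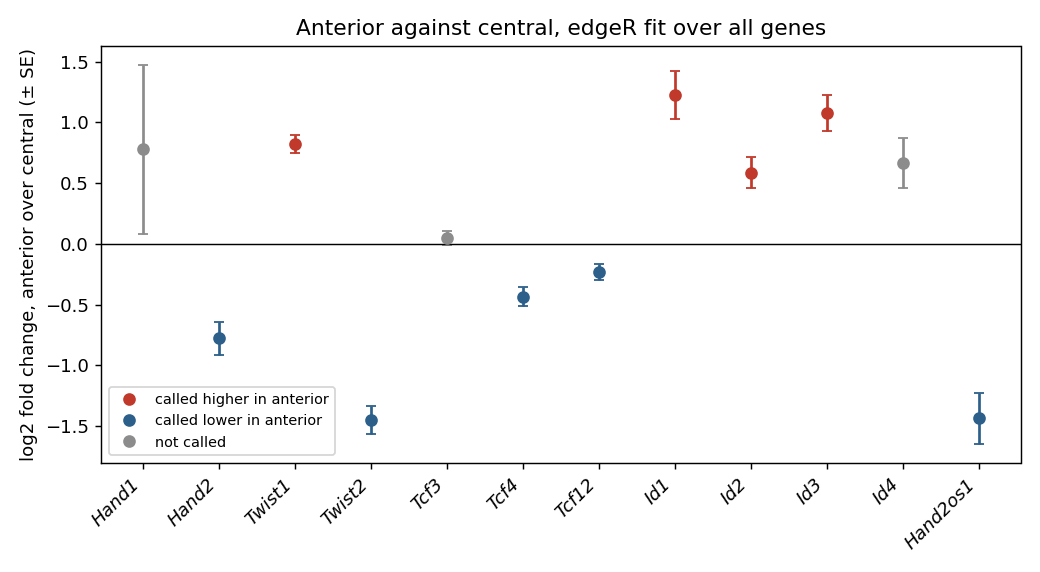
Log2 fold change of anterior over central cells with its standard error for the 10 genes, Id4 and Hand2os1, from the edgeR fit over all genes with 2 libraries per group. Red genes were called higher (Twist1, Id1, Id2, Id3), blue ones lower (Hand2, Twist2, Tcf4, Tcf12, Hand2os1), and grey ones were not called.

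Levels of different genes were compared as CPM per kb of exon, using the merged exons of GENCODE M21. In anterior cells Twist1 stood highest, at 288 ± 9.56 CPM per kb (SD, n = 2), followed by Id1 at 229 ± 2.27, Tcf3 at 154 ± 0.99 and Id3 at 147 ± 5.87. Hand2 came next at 86.6 ± 21.1 CPM per kb and Id2 at 66.9 ± 3.03. The gap was smaller than the SD of Hand2, though Hand2, at 102 and 71.7, did not overlap Id2, at 64.7 and 69.0. Tcf12 at 27.7 ± 1.48, Tcf4 at 13.2 ± 1.28, Twist2 at 6.29 ± 0.89 and Hand1 at 1.19 ± 1.05 CPM per kb followed.

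In central cells the top of the order was close. Twist1 at 163 ± 14.5, Tcf3 at 149 ± 0.27 and Hand2 at 149 ± 3.47 CPM per kb (SD, n = 2) differed by less than the SD of Twist1. Even so, Twist1, at 173 and 153, did not overlap Tcf3, at 148.6 and 148.9, or Hand2, at 151 and 146. Tcf3 and Hand2 overlapped. Id1 at 97.8 ± 36.6, Id3 at 69.6 ± 18.8 and Id2 at 44.5 ± 9.45 CPM per kb followed, in the same order in each central library. The gap between Id1 and Id3 lay inside their spread. Id3, at 82.9 and 56.4 CPM per kb, did not overlap Id2, at 51.2 and 37.8. The order depends on the length used. Per kb of coding length Id3 stood above Id1, at 736 ± 29.5 against 489 ± 4.85 CPM in anterior and 349 ± 94.3 against 209 ± 78.3 CPM in central cells. For the E-protein genes, the many transcript models give merged exons of 27382 bases for Tcf4 and 15529 for Tcf12 against coding lengths of 2274 and 2422. Per kb of coding length, Tcf4 measured 159 ± 15.4 and Tcf12 177 ± 9.46 CPM in anterior cells, and Hand2, at 536 ± 12.5 CPM in central cells, stood above Twist1, at 429 ± 38.2.

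Summed over each class, the per-length level of the E proteins was nearly equal across libraries while the others shifted. The sum over Tcf3, Tcf4 and Tcf12 was 195 and 194 CPM per kb in anterior cells and 198 and 200.3 in central cells. The Id1, Id2 and Id3 sum was 438 and 447 CPM per kb in anterior cells against 258 and 166 in central cells. The Twist sum was 302 and 287 against 190.5 and 169, and the Hand sum 102 and 73.6 against 152 and 146 CPM per kb. The near-equal E-protein sum depends on the length: per kb of coding length it was 616 ± 7.78 in anterior and 693 ± 13.5 CPM in central cells (SD, n = 2).

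Ratios within a library do not depend on how libraries are scaled. The per-length ratio of Hand2 to Twist1 was 0.344 and 0.255 in anterior cells and 0.873 and 0.958 in central cells. Its log2 value was lower in anterior cells by a difference of -1.63, or 3.09-fold, per kb of exon and per kb of coding length alike. The level of the ratio depends on the length. Per kb of coding length it was 0.472 and 0.349 in anterior cells and 1.197 and 1.313 in central cells. Twist1 thus stood above Hand2 in anterior cells by either length. In central cells Twist1 stood above Hand2 per kb of exon and below it per kb of coding length.

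The ratio of the Id sum to the E-protein sum was 2.24 and 2.30 in anterior cells and 1.30 and 0.829 in central cells, a log2 difference of 1.13. For the Twist sum to the E-protein sum the ratios were 1.55 and 1.48 against 0.963 and 0.846, a log2 difference of 0.74. The level of this ratio depends on the length: per kb of the longest transcript it was 0.943 and 0.903 in anterior and 0.578 and 0.505 in central cells, below 1 in all 4 libraries. Hand2 to the E-protein sum was 0.520 and 0.369 against 0.764 and 0.729, a log2 difference of -0.77. None of these 4 ratios overlapped between groups. With 2 libraries against 2, the exact two-sided permutation test gave p = 0.333 for each (0.333 after Benjamini-Hochberg adjustment over 4 ratios), the smallest this design allows.

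**Figure D3:**
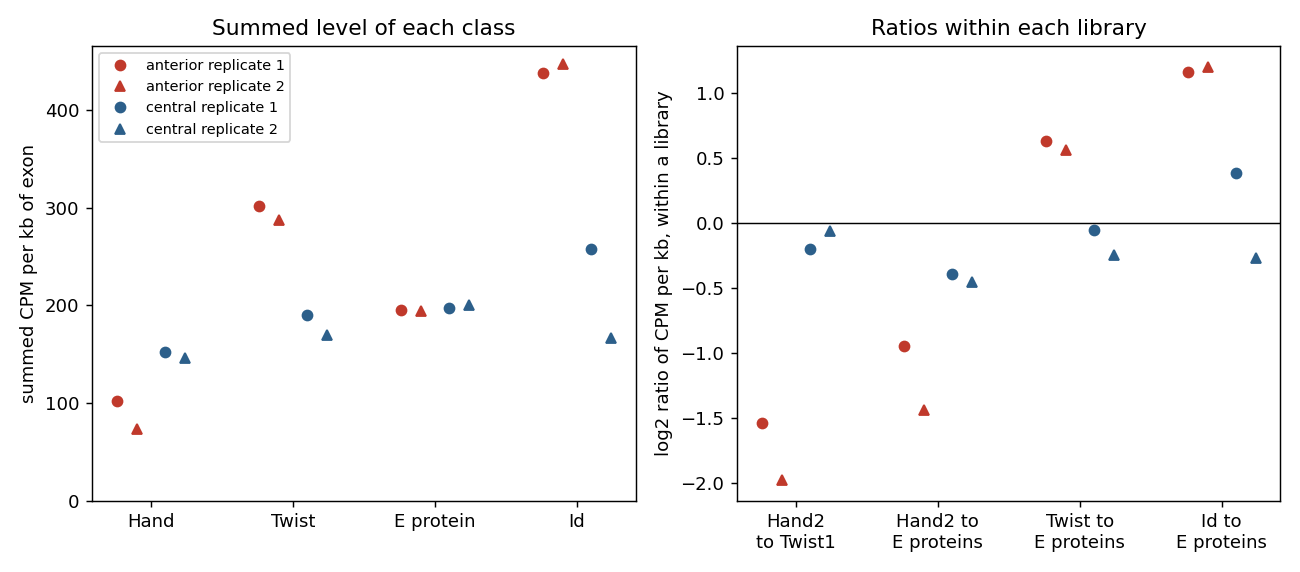
Left, summed CPM per kb of exon for the Hand, Twist, E-protein and Id members in each library. Right, log2 ratios of these per-length levels within each library, with 0 meaning equal levels. The E-protein sums sit between 194 and 200.3, and the 4 ratios are separated between anterior (red) and central (blue) libraries.

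Other genes of the network were read from lists chosen by what their products do, with earlier results of these data known. Some genes stand in several lists: Atoh8 in the bHLH and BMP-Smad lists, and Tbx2, Tbx3 and Grem1 in the BMP-Smad and Hand2 lists. The shares called are therefore descriptions and not separate evidence. Of 37 other bHLH genes able to pair with E proteins, 15 passed the low-count filter, and the other 22 had at most 14 counts in any library. Of the 15, 3 were called higher and 8 lower, or 73.3% in all, against 22.9% of all genes tested. The lower ones included the myogenic factors Myog and Myod1, with Myod1 at 0.16 ± 0.03 CPM in anterior and 13.6 ± 4.33 CPM in central cells (SD, n = 2). Myog had no count in either anterior library and was at least 114-fold lower against a floor of 3 counts per library, or at least 61.1-fold without central replicate 1 and at least 167-fold without central replicate 2. Scx, a tendon regulator, fell by 3.31 on the log2 scale (edgeR adjusted p = 3.98e-07), and Tcf15, a regulator of paraxial mesoderm, by 1.81 (edgeR adjusted p = 0.000595).

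Tal1, the blood and endothelial bHLH factor, was higher in anterior cells, at 9.86 and 25.0 CPM against 0.88 and 0.62 CPM, with a log2 fold change of 4.54 (edgeR adjusted p = 0.000263). Marker genes of other cells differed as well. The 9 erythroid markers summed to 3294 and 8400 CPM in the anterior libraries and to 5.97 and 9.48 CPM in the central ones, with Hba-a1 at 0 in all 4. The 7 myogenic markers summed to 4.17 and 2.35 CPM against 143 and 142 CPM, with Pax7 and Myog at 0 in anterior cells. This list shares Myog and Myod1, among others, with the bHLH list above, so the 2 lists are not separate evidence. The 10 endothelial markers summed to 18.0 and 22.9 CPM against 47.4 and 51.7 CPM, none at 0 in a whole group, with 5 called lower and 5 not called. The 8 macrophage markers summed to 18.8 and 15.8 CPM against 6.75 and 5.99 CPM, with 4 of 7 tested called higher. Of 10 genes of the dissociation stress response, Egr1 and Jun were called lower and Atf3 higher. The shares called were 50% (endothelial), 57.1% (macrophage) and 30% (stress), against 22.9% of all genes tested. The 8 chondrogenic markers summed to 418 and 304 CPM against 1509 and 1202 CPM, with Matn1 at 0 in anterior cells. In bulk libraries, fewer cells of a type and less RNA per cell cannot be told apart. The part of these cells and of the stress response in the values of the members, Tal1, Scx, Myog and Myod1 was not tested. The limb mesenchyme markers, 10 genes, were present in both groups, at 3012 and 3026 CPM in anterior and 1839 and 1694 CPM in central libraries. The rise in this sum was not shared by all 10. Of them, 6 were called higher, 1 lower (Hoxc10) and 3 were not called (Prrx1, Pitx1 and Tbx4). That was 70% called in all, against 22.9% of all genes tested. The forelimb gene Tbx5 was at 0.07 CPM or less in anterior and at 2.66 and 1.36 CPM in central libraries.

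Genes that respond to BMP-Smad signalling, as the Id genes do, were called higher in 6 and lower in 1 of 13. That was 53.8% in all, against 22.9% of all genes tested. Their median log2 fold change was 0.56 against -0.0087 over all genes tested. The homeobox gene Msx1 measured 246 ± 10.5 CPM in anterior and 25.7 ± 4.85 CPM in central cells (SD, n = 2), and Msx2 64.8 ± 3.81 against 9.29 ± 1.74 CPM. Bambi, a decoy receptor, rose by 1.54 on the log2 scale (edgeR adjusted p = 8.23e-06), the inhibitor gene Smad7 by 0.89 (0.000218) and the Wnt antagonist gene Dkk1 by 2.13 (7.68e-05). Tbx2 and Tbx3 were not called, with edgeR adjusted p-values of 0.733 and 0.0810.

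Of 13 genes linked to Hand2 in the limb bud, 5 were called higher and 4 lower, with a median log2 fold change of -0.19. That was 69.2% called in all, against 22.9% of all genes tested. Gli3, which Hand2 opposes, was among the higher ones, at 314 and 379 CPM in anterior and 197 and 199 CPM in central cells. Shh, which Hand2 acts upstream of, was not called (edgeR adjusted p = 0.203). It measured 27.4 and 11.7 CPM in anterior and 13.2 and 12.2 CPM in central cells, with overlap between groups. Both genes were named here for these roles after their values were seen. Hoxd13 rose by 1.59 and Bmp4 by 1.44 on the log2 scale (edgeR adjusted p = 0.000404 and 1.18e-05). Irx3 and Irx5, factors of proximal and anterior limb progenitors, fell by 5.69 and 5.91 (edgeR adjusted p = 7.54e-06 and 0.000101).

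Of 16 genes linked to Twist1, 8 were called higher and 6 lower, with a median log2 fold change of 0.16. That was 87.5% called in all, against 22.9% of all genes tested. The mesenchymal homeobox gene Prrx2 rose by 1.91, the FGF-responsive Etv4 by 1.48 and the Snail-family repressor Snai2 by 1.38 on the log2 scale (edgeR adjusted p = 8.23e-06, 3.72e-06 and 0.000143). Zeb2, another repressor of epithelial genes, fell by 2.34, and the receptor gene Fgfr2 fell by 2.14 (edgeR adjusted p = 5.08e-05 and 0.00107). Prrx1 and Runx2 were not called (edgeR adjusted p = 0.473 and 0.202).

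Among 14 tested genes for proteins that bind bHLH factors, 3 were called higher and 1 lower, or 28.6% in all, close to the 22.9% of all genes tested. Lmo2, a bridging protein in complexes with Tal1, measured 65.5 and 79.6 CPM in anterior and 15.8 and 15.0 CPM in central cells. The corepressor genes Cbfa2t3 and Runx1t1, whose products bind E proteins, moved apart, by 1.22 and -2.87 on the log2 scale (edgeR adjusted p = 0.000216 and 5.23e-06), and Lmo4 rose by 0.52 (0.0140). Ldb1, the cofactor that joins Lmo proteins, was at 298 ± 8.39 and 297 ± 8.37 CPM (SD, n = 2), and Huwe1, a ubiquitin ligase gene, was not called either (edgeR adjusted p = 0.992 and 0.464). The erythroid sums given above moved in the same direction as Lmo2 and Cbfa2t3, and their part in these values was not tested.

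**Figure D4:**
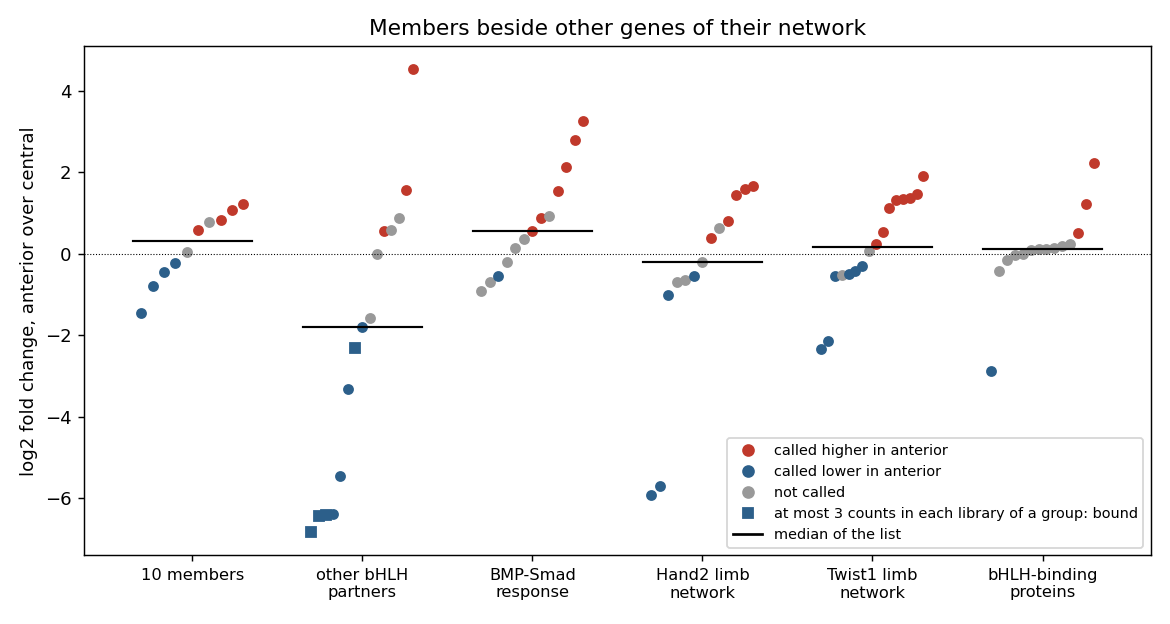
Log2 fold change of anterior over central cells for each tested gene of the 10 members and of the related lists, with the median of each list as a line. Squares are called genes with at most 3 counts in every library of a group, plotted at their bound against the floor. The BMP-Smad list has 6 red and 1 blue gene, and the lists linked to Hand2 and Twist1 hold both colours.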

How the data were processed

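RNA-seq of 4 sorted hindlimb libraries was deposited as whole-number counts per gene symbol. Per the submitters' processing notes, the authors used build mm10 and the tools STAR 2.7.9a, HTSeq and DESeq2 (given as 3.16); annotation and strand setting are not given in the sources used here. Columns were matched to sample titles by domain and replicate number, and 0 were left unmatched. Library totals were 30080925 to 33257383 counts. Even numbers made up 72.8% to 75.6% of counts from 1 to 10, so halved counts were also fitted. Floors cover counting error only.

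Counts were fitted with edgeR 4.0.16 (R 4.3.3): filterByExpr, TMM, quasi-likelihood test on all 14610 genes kept, 2 residual degrees of freedom, Benjamini-Hochberg threshold 0.05; SE is the absolute log2 fold change over the square root of F. Alternatives were DESeq2 1.42.0, limma-voom 3.58.1, other scalings and filters, the replicate block and leaving out libraries. The fit was also run on counts simulated from its own means and spreads as independent libraries, which cannot show whether these replicates are independent. No label says that libraries came from separate embryos, so p-values measure the spread between these samples, which may be technical. Replicates differed beyond sampling noise (chi-square per degree of freedom of 15.1 and 8.49 on halved counts). Members and lists were chosen with earlier results of these data known; besides the members and Id4, up to 5 called genes per list with mean CPM of at least 5 and the largest changes, and up to 2 not called, were named, except 1 that is not reported here. Lengths are from GENCODE M21, positions and sequences from RefSeq GRCm38.p6 (mm10); all 10 symbols matched.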

Additional observations from a re-analysis of the deposited data

How the results depend on the processing

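Over the 11 alternatives with all 4 libraries (scalings, filters, halved counts, gene removals, DESeq2, limma-voom and the replicate block), 8 members were called each time, 4 in each direction. With the replicate block, 3586 genes were called against 3351 without it, and all 8 members were called; of the single genes tested, Id4 alone crossed the threshold (log2 fold change 0.68, edgeR adjusted p = 0.0281). The labels give a shared replicate number and do not say whether libraries were paired. Replicate differences in the 2 groups correlated at 0.046 across genes. Genes are not independent replicates, so this value cannot settle whether there was pairing. Fits leaving out a library have 1 residual degree of freedom and assume that the lone library varies like the other group. They called from 2009 genes (without anterior replicate 2) to 3697 genes (without central replicate 2), and from 6 to 8 members: Tcf12 was lost without either anterior library and Tcf4 without anterior replicate 2. Hand1 ranged from -0.60 to 1.67 on the log2 scale. The count of bHLH-binding genes called was 7 without central replicate 2 against 4 in all 4 libraries. The cause was not tested. No scaling moved the median of all genes by over 0.1 on the log2 scale. The 22 bHLH genes left out by the filter were too low to test, and Hand1 was not called on halved counts either (edgeR adjusted p = 0.463).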
